A study of Homo sapiens with 2 samples.

Results

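The protein kinase C (PKC) genes encode serine/threonine kinases that carry lipid and calcium signals from receptors. The 8 genes described here, PRKCA, PRKCB, PRKCD, PRKCE, PRKCH, PRKCQ, PRKCI and PRKCZ, were found by symbol among the 62702 rows of a table of estimated counts per gene. They were chosen from the family after the ratio of PRKCB between the libraries was known to be among the lowest of all genes, so the values of PRKCB are given as a description and were not tested. RNA was measured in K562, an established human line from chronic myeloid leukemia with erythroid features. The study had 2 libraries, 1 from cells with a control guide RNA (sgRNA_Control) and 1 from cells with a guide against SMC1A (sgRNA_SMC1A), which encodes a subunit of the cohesin ring that holds chromatin loops. Both titles say WT and the genotype of both is E50_dCas9-KRAB, so the control cells carry the same nuclease-dead Cas9 repressor, and the labels do not say what E50 means. Cells of both groups were infected with guide lentivirus, kept in 1 µg/ml puromycin between days 2 and 6, and sorted for strong blue fluorescence. The labels do not say whether the line is 1 clone. The table also has counts in both libraries for the fluorescent reporters d2EGFP and dsRed-Express2, which the labels do not mention. The groups are called control cells and targeted cells below.

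PKC isozymes fall into 3 classes by what switches them on. Classical isozymes, here PRKCA and PRKCB, need calcium and diacylglycerol, a class responsive to diacylglycerol but not to calcium holds PRKCD, PRKCE, PRKCH and PRKCQ (calcium-independent in the plots), and atypical isozymes (PRKCI, PRKCZ) need neither and work through protein partners. Phospholipase C makes diacylglycerol at the membrane, diacylglycerol kinases remove it, and phorbol esters imitate it. In K562 cells phorbol esters are widely used to drive megakaryocyte-like differentiation.

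The libraries held 18349209 counts from control cells and 16864207 from targeted cells. Levels are CPM, counts divided by a library size that was scaled by TMM and given in units of 1e+06. Ratios are targeted over control cells on the log2 scale with a prior count of 1, and intervals are exact 95% counting intervals. Each guide has 1 library, so differences have no replicate check and no p-value, and the intervals cover counting error only. These reads carry no molecular identifiers and so do not count independent molecules, so the intervals may be too narrow even for that error. The target SMC1A stood at 8077 and 288 counts, which left 3.55% of its control level. All 13 erythroid markers had at least 100 counts, and the level of 6 of them, TFRC and 5 globin genes, was lower in targeted cells by 2-fold or more. In bulk RNA, fewer cells of a type and less RNA per cell cannot be told apart.

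Together the 8 members had 10230 counts (583.1 CPM) in control cells and 4676 counts (265.1 CPM) in targeted cells. Their summed level was 2.20-fold lower (interval 2.12 to 2.28). The other 7 members without PRKCB summed to 174.9 and 168.4 CPM, a log2 ratio of -0.05 with an interval of -0.13 to 0.02 that includes 0. Scaling by library totals instead of TMM moved the median ratio of all tested genes upward by 0.13, which is more than this difference. By class, the classical members summed to 480.1 and 173.2 CPM, the PRKCD, PRKCE, PRKCH and PRKCQ group to 39.2 and 27.4 CPM, and the atypical members to 63.8 and 64.5 CPM.

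Of the 8 members, 6 had at least 100 counts over both libraries and could be sorted by size of difference. Lower by 2-fold or more was 1 of the 6, PRKCB, and 0 of 6 were higher by as much. Among all 11321 genes with 100 counts, 2.32% (263 genes) were lower by 2-fold or more and 5.11% (579 genes) higher. Scaled by library totals these numbers were 195 and 766. Because PRKCB was known when the family was picked, nothing is read from that share. The median ratio of the 6, PRKCB among them, was -0.23, against -0.05 over all tested genes. At a limit of 20 counts, which adds PRKCE, the median of 7 members was 0.01, against -0.01 over all such genes. At the limit of 100 counts, 4 of the 6 lay within 1.5-fold, 66.7% against 78.8% of all genes.

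**Figure D1:**
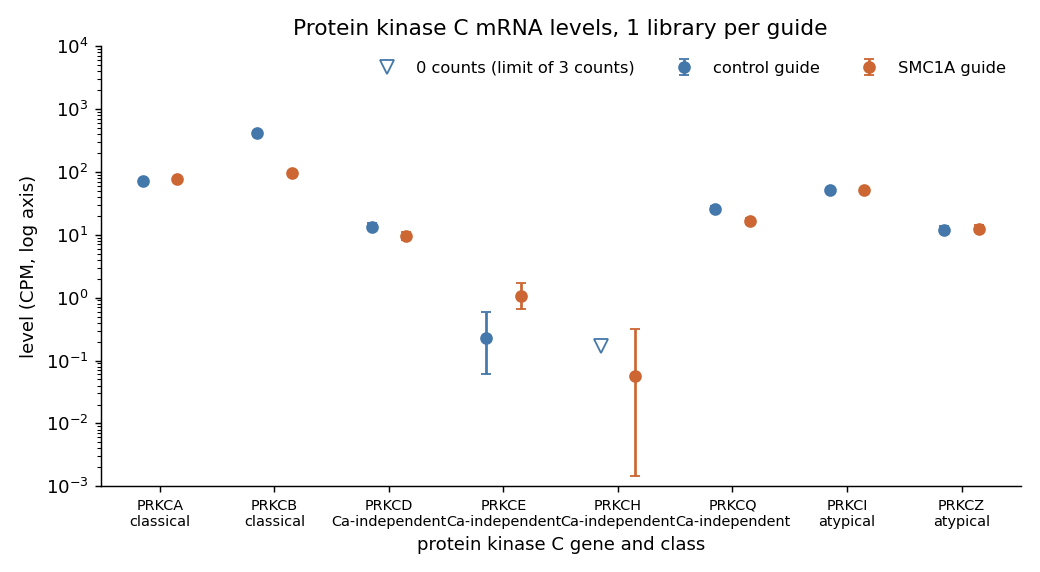
Level of each member in CPM (log axis) in the control-guide library (blue) and the targeted library (orange), with exact 95% Poisson intervals of the counts. The open triangle marks a count of 0 at the level that 3 counts would give. PRKCB is at 408.2 CPM in control cells and at 96.7 CPM in targeted cells, while the pairs of points for PRKCA, PRKCI and PRKCZ lie close together.

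PRKCB (ENSG00000166501.14, chromosome 16, 23835946 to 24220611, GRCh38) encodes a classical isozyme best known for signalling from the B cell receptor. It had 7162 counts (408.2 CPM) in control cells and 1706 counts (96.7 CPM) in targeted cells. It had the most counts of the members in both libraries, and its level in targeted cells was 23.7% of control (interval 22.5 to 24.98). The log2 ratio was -2.08 (interval -2.15 to -2.00), a 4.22-fold lower level. Of the 11321 tested genes, 29 had a lower ratio. Among the 8114 protein-coding genes with at least 500 counts, 8 did.

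PRKCA (ENSG00000154229.12, chromosome 17, 66302636 to 66810743) encodes the broadly expressed classical isozyme. It had 1261 counts (71.9 CPM) and 1349 counts (76.5 CPM), with a log2 ratio of 0.09 and an interval of -0.02 to 0.20 that includes 0. Scaled by library totals its ratio was 0.22, so a small difference of this classical relative of PRKCB hangs on the scaling. A comparison within each library needs no scaling, and here there were 5.68 PRKCB counts per PRKCA count in control cells and 1.26 in targeted cells.

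**Figure D2:**
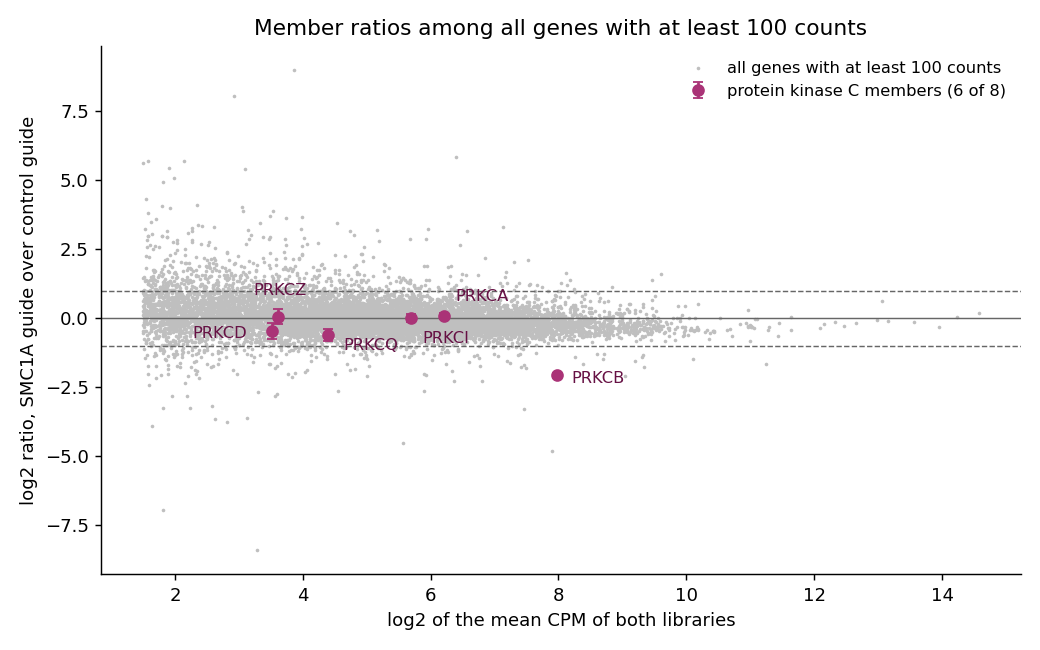
Log2 ratio (targeted over control cells) against the log2 of the mean CPM for all 11321 genes with at least 100 counts (grey), with the 6 members that pass this limit in purple with exact 95% counting intervals. Dashed lines mark 2-fold. PRKCB lies at -2.08, far below most genes of its level, and the other 5 lie between the dashed lines.

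The sequences before the starts of 3 members are shown because the ratios of their genes differed: PRKCB, which was 4.22-fold lower, its relative PRKCA, which was not lower, and PRKCQ, which was 1.54-fold lower. Each run is the 250 bases before the RefSeq transcript start (GRCh38.p14), 5′ to 3′ on the gene's strand, with every GC box (GGGCGG on either strand) in capitals. The windows are chr16:23835733-23835982 (plus strand) for PRKCB, chr17:66302363-66302612 (plus) for PRKCA and chr10:6580647-6580896 (minus) for PRKCQ. GENCODE 29 starts PRKCB at 23835946, inside its window.
PRKCB: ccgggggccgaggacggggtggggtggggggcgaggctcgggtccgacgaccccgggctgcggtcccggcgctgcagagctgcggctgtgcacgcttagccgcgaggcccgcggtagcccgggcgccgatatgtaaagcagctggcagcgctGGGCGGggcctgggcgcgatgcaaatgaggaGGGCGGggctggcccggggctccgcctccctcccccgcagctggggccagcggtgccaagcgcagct
PRKCA: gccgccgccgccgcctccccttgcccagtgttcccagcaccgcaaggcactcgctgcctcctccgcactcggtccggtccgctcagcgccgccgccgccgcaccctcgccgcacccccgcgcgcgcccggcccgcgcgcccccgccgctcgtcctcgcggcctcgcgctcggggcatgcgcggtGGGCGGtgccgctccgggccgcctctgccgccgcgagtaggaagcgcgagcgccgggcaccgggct
PRKCQ: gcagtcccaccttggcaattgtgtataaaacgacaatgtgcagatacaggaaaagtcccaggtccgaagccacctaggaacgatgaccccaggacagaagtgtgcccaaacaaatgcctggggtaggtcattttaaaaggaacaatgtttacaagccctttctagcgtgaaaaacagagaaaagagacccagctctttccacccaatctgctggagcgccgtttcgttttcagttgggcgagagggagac

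The PRKCB window has 77.2% G or C and 30 CG pairs, and the PRKCA window 82.0% and 47 CG pairs. The PRKCQ window has 49.2% and 8, against a median G or C content of 58.0% over the 35116 windows of 27305 genes in the RefSeq table. All 8 members were matched, with 13 windows in all, since PRKCD has 3 starts and PRKCZ has 4. The PRKCB window holds 2 GC boxes and the PRKCA window 1, and the PRKCQ window holds 0. Each of the other members has a GC box in at least 1 window, with up to 7 in a PRKCZ window. A GC box occurs in 42.6% of all windows. All 4 motifs were chosen after the windows had been read and were searched on both strands, and their matches in the PRKCB window do not overlap. The E-box CAGCTG is found in PRKCB 2 times and in 13.99% of all windows, and the octamer ATGCAAAT in PRKCB 1 time and in 1.63% of all windows. The E-box is also found 1 time each in a PRKCD and a PRKCZ window, and in neither the PRKCA nor the PRKCQ window. The octamer is in no other window of the members. The GATA motif AGATAA, present in 9.17% of all windows, is in none of the 13. These are matches of letters, and no binding was measured.

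The diacylglycerol-dependent, calcium-independent isozymes were far less abundant than PRKCB. PRKCQ (ENSG00000065675.16, chromosome 10, 6427143 to 6580301), the isozyme of the T cell synapse that is also found in platelets and muscle, had 450 counts (25.6 CPM) in control cells and 293 counts (16.6 CPM) in targeted cells. Its log2 ratio was -0.62 (interval -0.84 to -0.41), a 1.54-fold lower level that counting error does not cover. PRKCD (ENSG00000163932.16, chromosome 3, 53156009 to 53192717), a widely expressed isozyme known for its part in apoptosis, had 234 counts (13.3 CPM) and 170 counts (9.64 CPM). It was 1.38-fold lower, with a log2 ratio of -0.47 (interval -0.76 to -0.18). Both genes were thus lower in targeted cells but short of 2-fold, and 882 and 1648 of the 11321 tested genes had lower ratios than PRKCQ and PRKCD.

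PRKCE (ENSG00000171132.14, chromosome 2, 45651345 to 46187990), known from heart and nerve cells, was barely detected, with 4 and 19 counts (0.228 and 1.08 CPM). Its counts gave a 4.73-fold higher level with a wide interval of 1.57 to 19.1. It is the 1 member above 20 but below 100 counts. PRKCH (ENSG00000027075.17, chromosome 14), an isozyme of epithelia and lymphocytes, had 0 and 1 counts. A count of 0 allows up to 3 counts, 0.171 CPM in control cells and 0.170 CPM in targeted cells, so no difference of PRKCH was detectable at this depth.

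The atypical isozymes were within counting error of no difference under TMM scaling, and by library totals their ratios were 0.14 (PRKCI) and 0.18 (PRKCZ). PRKCI (ENSG00000163558.13, chromosome 3, 170222365 to 170305981), which acts in cell polarity, had 908 counts (51.8 CPM) and 918 counts (52.0 CPM), a log2 ratio of 0.01 (interval -0.13 to 0.14). PRKCZ (ENSG00000067606.17, chromosome 1, 2050470 to 2185395), its relative, had 211 counts (12.03 CPM) and 220 counts (12.5 CPM), a log2 ratio of 0.05 (interval -0.23 to 0.33). The intervals reach up to a 1.104-fold higher level for PRKCI and 1.26-fold for PRKCZ. There were 4.30 PRKCI counts per PRKCZ count in control cells and 4.17 in targeted cells.

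Levels of different genes were compared per kilobase of the longest GENCODE transcript, because longer mRNAs give more fragments. With the control guide PRKCB was highest at 51.0 CPM per kb, followed by PRKCI at 10.5, PRKCA at 8.21, PRKCQ at 7.81, PRKCZ at 5.17 and PRKCD at 4.75. PRKCE stood at 0.0404. The counting intervals of PRKCA and PRKCQ overlap, as do those of PRKCZ and PRKCD, so their order is not settled. In targeted cells PRKCB was still first at 12.1 CPM per kb (interval 11.5 to 12.7), now close to PRKCI at 10.5 (9.85 to 11.2). PRKCA followed at 8.74, then PRKCZ at 5.36 and PRKCQ at 5.06, whose intervals overlap, and PRKCD at 3.43. The true lengths depend on which isoforms the cells make, which the table does not give.

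The make-up of the family's mRNA differed between the libraries. PRKCB made up 70.0% of the members' counts in control cells (exact binomial interval 69.1 to 70.9), and of those in targeted cells 36.5% (35.1 to 37.9). The share of PRKCA was 12.3% and 28.8%, that of PRKCI 8.88% and 19.6%, that of PRKCQ 4.399% and 6.27%, and that of PRKCZ 2.06% and 4.70%. The larger shares of PRKCA, PRKCI and PRKCZ came with nearly equal CPM in both libraries. Per length, PRKCB made up 58.3% and 26.6%, and PRKCI 11.96% and 23.2%.

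**Figure D3:**
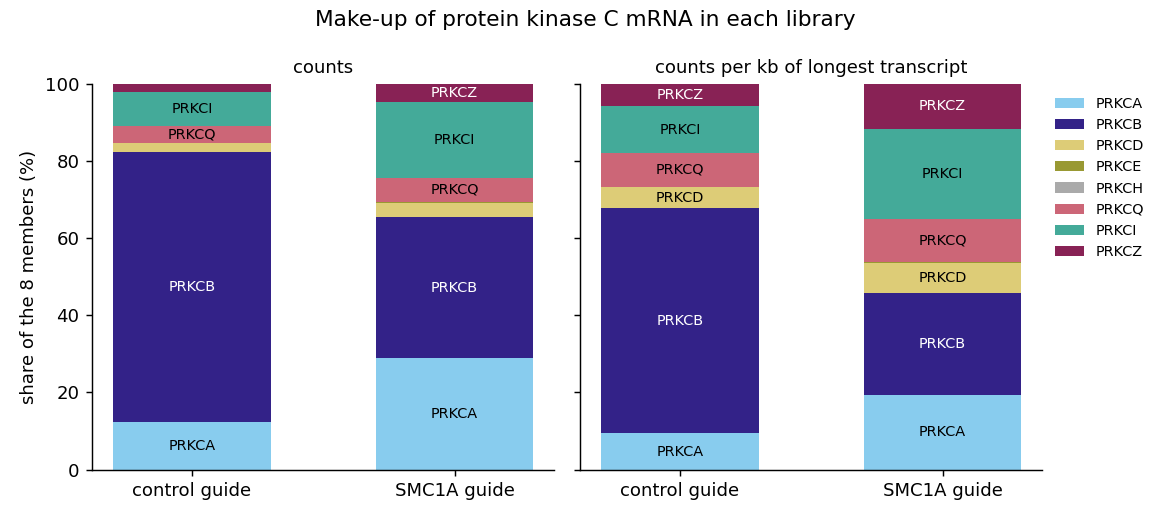
Share of each member in the summed signal of the 8 members (%), by counts (left) and by counts per kilobase of the longest transcript (right), for both libraries. The PRKCB segment is 70.0% of counts in control cells and 36.5% in targeted cells, where PRKCA and PRKCI hold most of the rest.

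RNA genes beside the members were read from the same table. PRKCQ-AS1 (ENSG00000237943.8) runs the other way from PRKCQ. In GENCODE 29 it starts at 6580419, 118 bases outside the PRKCQ start at 6580301. The RefSeq start of PRKCQ, from which the printed window was taken, is 6580646, so by that start the genes overlap and the window lies within PRKCQ-AS1. It had 396 counts (22.6 CPM) and 458 counts (26.0 CPM), a log2 ratio of 0.20 (interval 0.01 to 0.40), while PRKCQ was at -0.62. There were 1.14 PRKCQ counts per PRKCQ-AS1 count in control cells and 0.640 in targeted cells. PRKCZ-AS1 had 12 counts in each library, and PRKCA-AS1, PRKCE-AS1, PRKCH-AS1 and PRKCZ-DT had 0 in both. PRKCZ shares 590 exon bases with FAAP20 on the opposite strand (776 and 790 counts). The library kit keeps strand, but whether the counting used it is not given in the sources used here, so reads in that overlap cannot be assigned with certainty.

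Protein-coding genes that start within 500 kb of a member's start were compared with the member itself. Of 44 such genes with at least 100 counts, 2 were lower by 2-fold or more and 0 higher by as much, with a median log2 ratio of -0.15. Over all tested genes 2.32% were lower and 5.11% higher by as much, with a median of -0.05. None of the 8 genes near PRKCB passed 2-fold. They lie upstream of it, from COG7 at 0.17 and DCTN5 at -0.05 to EARS2, a mitochondrial aminoacyl-tRNA synthetase gene, at -0.49. The nearest start was that of the mitotic kinase gene PLK1, at -158.3 kb, with 203.9 and 170.9 CPM and a ratio of -0.25. Near PRKCQ were PFKFB3 at -0.35 and RBM17 at -0.32, and near PRKCD the extremes of 10 genes were GNL3 at -0.66 and GLT8D1 at 0.54. Both 2-fold lower genes lay near PRKCZ, TMEM52 (93 and 33 counts, -1.47) and FNDC10 (155 and 68 counts, -1.18), while PRKCZ itself was at 0.05. The highest ratio near PRKCZ was that of MORN1, 0.52. Near PRKCI the 4 genes ran from MYNN at -0.36 to SKIL at 0.88, with PHC3, the nearest, at 0.27. Near PRKCH the 4 genes ran from SIX4 at -0.21 to SLC38A6 at 0.93, with a median of -0.20 and the nearest, TRMT5, at -0.18. SRBD1 near PRKCE was at 0.02, and PRKCA had 0 neighbours with 100 counts.

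**Figure D4:**
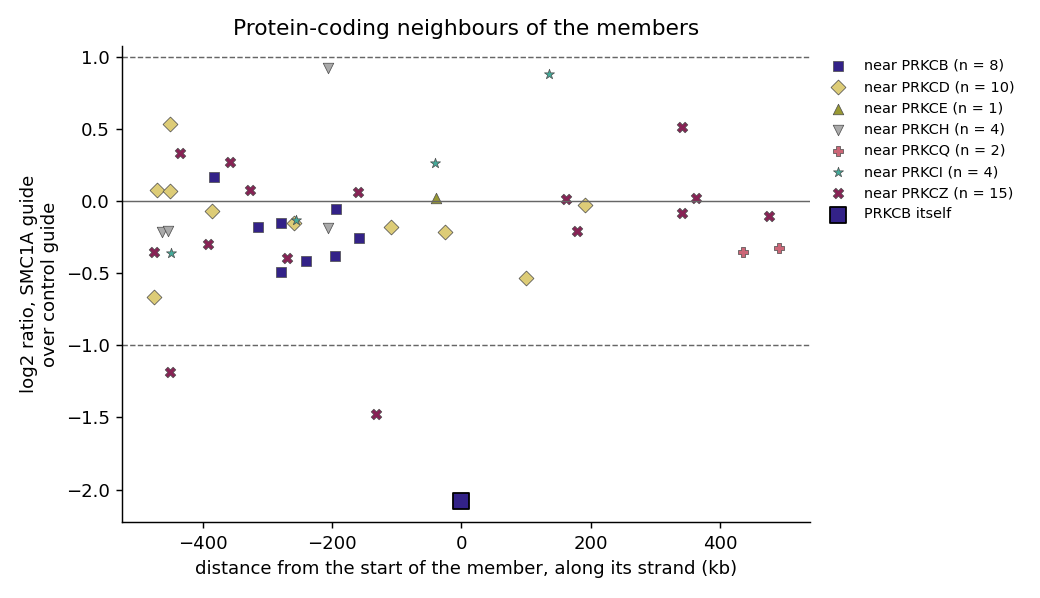
Log2 ratio (targeted over control cells) of the 44 protein-coding neighbours with at least 100 counts against the distance of their start from the member's start (kb, along the member's strand), by member. Dashed lines mark 2-fold. The 8 genes near PRKCB lie between -0.49 and 0.17, well above PRKCB itself at -2.08.

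The genes around the kinases were read from 13 lists of 157 genes. Of the 119 with at least 100 counts, 7 (5.88%) were higher by 2-fold or more and 5 (4.20%) lower, against 5.11% and 2.32% of all tested genes. The median log2 ratio was 0.05. Medians of single lists below are over members with at least 20 counts, of which the median over all such genes was -0.01.

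In the list of phospholipase C genes and their relatives, 0 of 9 were higher by 2-fold or more and 1 was lower, and the list median was -0.01. The lower gene was PLCL1, whose product is a catalytically inactive relative, with 343 and 170 counts (2.03-fold lower, log2 ratio -1.02, interval -1.29 to -0.75). PLCB2 had the highest ratio of the list, 0.53 on 48 and 70 counts. PLCG1, the form used by tyrosine kinase receptors, had 78.1 and 91.5 CPM and a ratio of 0.23. Of 6 diacylglycerol kinases, 0 passed 2-fold, from DGKZ at -0.23 to DGKH at 0.50, with a median of 0.33.

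Enzymes of lipids next to diacylglycerol had the most genes past 2-fold of the 13 lists. Of 11 genes for phosphatidate and phosphoinositide enzymes, 3 were past 2-fold upward and 1 past it downward, with a median of 0.58. The phospholipase D genes PLD1 and PLD2, whose products make phosphatidate, were 2.57-fold higher (203 and 524 counts) and 2.37-fold higher (31 and 74 counts). LPIN3, for a lipin that turns phosphatidate into diacylglycerol, was 2.10-fold higher (104 and 220 counts). PIP5K1B, for a kinase that makes the substrate of phospholipase C, was 4.28-fold lower with 98 and 23 counts (log2 interval -2.82 to -1.43).

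The other product of phospholipase C, inositol trisphosphate, opens calcium channels of the endoplasmic reticulum. Of 10 genes for these channels and for calcium entry and uptake, 1 was past 2-fold upward and 0 downward, with a median of 0.19. The channel gene ITPR2 had 178 counts (10.1 CPM) and 898 counts (50.9 CPM), 5.02-fold higher (log2 interval 2.09 to 2.57). The sister gene ITPR3 had the lowest ratio of the list, at -0.37 with 90.5 and 69.9 CPM, and ITPR1 was at -0.22.

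Other proteins that bind diacylglycerol through a C1 domain had a list median of 0.20. Of 4 genes with 100 counts, 1 was past 2-fold upward and 0 downward. UNC13A, a factor of vesicle priming, was 2.18-fold higher (136 and 298 counts), and RASGRP2 was lowest at 0.05. RASGRP3, an activator of Ras-family proteins chosen after its counts were seen, had 4 and 48 counts, 11.9-fold higher with a log2 interval of 2.13 to 5.51.

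Of 16 genes for the priming, folding and dephosphorylation of PKC, 0 were past 2-fold upward and 1 past it downward, with a median of -0.28. PPP1R14A, for an inhibitor of protein phosphatase 1 that PKC activates, was 2.08-fold lower (455 and 220 counts). PHLPP2, a phosphatase gene of PKC and AKT, was highest at 0.51, and PDPK1, for the kinase that primes PKC, was at 0.32. Anchors and scaffolds had 0 of 6 past 2-fold, from PDLIM5 at -0.48 to AKAP13 at 0.82, with a median of 0.02. RACK1, for a ribosomal protein that also binds active PKC, was at -0.40 with 747.7 and 566.5 CPM.

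Of 17 genes for PKC substrates, 2 were past 2-fold upward and 1 past it downward, with a median of -0.14. Over all tested genes the shares were 5.11% upward and 2.32% downward. MARCKS, whose product binds actin and membrane until PKC phosphorylates it, had 86 counts (4.90 CPM) and 578 counts (32.8 CPM), 6.69-fold higher (log2 interval 2.41 to 3.09). Its relative MARCKSL1 had 5908 counts (336.7 CPM) and 3001 counts (170.2 CPM), a log2 ratio of -0.98 (interval -1.05 to -0.92), just short of 2-fold. MARCKS was thus higher and MARCKSL1 lower in targeted cells. NRGN, for neurogranin, was 2.27-fold higher (74 and 169 counts), and ADD2, for an adducin of the membrane skeleton, was 2.36-fold lower (1843 and 785 counts), while its relatives ADD1 and ADD3 were at 0.37 and 0.47.

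Partners of the atypical isozymes had 0 of 7 genes past 2-fold, from PARD3 at -0.23 to SQSTM1, for the adaptor p62, at 0.85, with a median of 0.21. In the CARD-BCL10-MALT1 module, through which PRKCB and PRKCQ products reach NF-kappaB in lymphocytes, 0 of 12 passed 2-fold. Its median was -0.0015, from CHUK at -0.37 to BCL10 at 0.41.

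Related kinases were read for comparison. The PKC-related PKN and PRKD genes had 0 of 6 past 2-fold, from PKN3 at -0.16 to PKN2 at 0.59, with a median of 0.35. In the list of AKT, S6 and SGK kinases 0 of 8 passed, from RPS6KA1 at -0.39 to SGK1 at 0.33, with a median of -0.13. Among protein kinase A subunits 1 of 7 was at least 2-fold lower. This was PRKAR2B, for a regulatory subunit, with 3821 counts (217.8 CPM) and 1299 counts (73.7 CPM), 2.96-fold lower (log2 interval -1.66 to -1.47). The catalytic subunit genes PRKACA and PRKACB were at 0.44 and 0.68, the latter the highest of the list, whose median was -0.40.

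**Figure D5:**
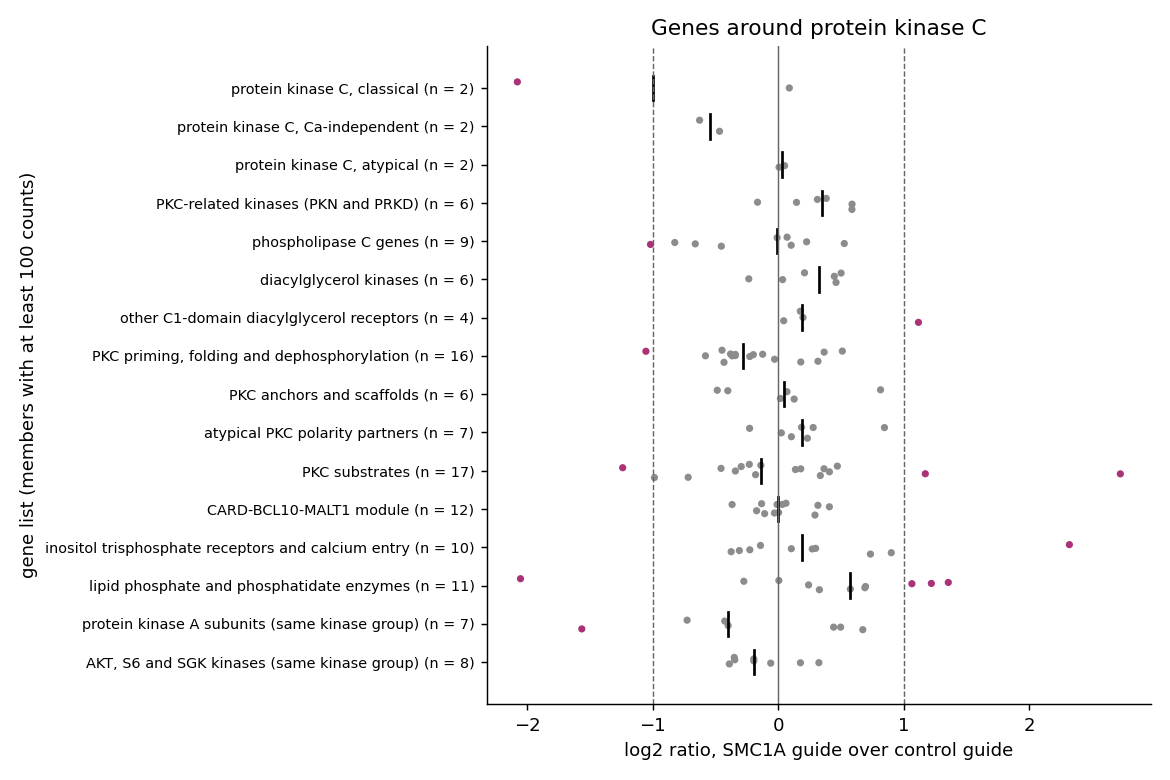
Log2 ratio (targeted over control cells) of every gene with at least 100 counts in the 3 isozyme classes and the 13 lists; black bars are medians over the genes drawn, dashed lines mark 2-fold and purple points lie past it. PRKCB at -2.08 and PIP5K1B at -2.05 lie farthest to the left, and MARCKS at 2.73 and ITPR2 at 2.32 farthest to the right.

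PRKCB and PRKCQ are known from lymphocytes, myeloid cells and platelets, so markers of those cells were read in both libraries. The 9 B cell markers summed to 1.14 and 2.61 CPM, with MS4A1, BLK and IGHM at 0 counts in both libraries. The 12 T and NK cell markers summed to 18.6 and 30.2 CPM, with CD2, CD4, CD8A and GNLY at 0, and CD3D and CD3G made up most of the sum. The 12 myeloid markers summed to 54.9 and 68.0 CPM, with MPO, ELANE and S100A8 at 0 and 0 of 4 genes past 2-fold. The 12 megakaryocyte and platelet markers summed to 56.1 and 91.2 CPM, with GP1BA, GP9, PF4, VWF and SELP among those at 0 in both libraries. Of their 4 genes with at least 100 counts, 3 were at least 2-fold higher (ITGA2B, GP6 and TUBB1), against 5.11% of all tested genes. The remaining gene, F2R, was lower, with 600 and 415 counts and a log2 ratio of -0.54. The sums of these 4 lists were thus higher in targeted cells. Among 10 fibroblast and epithelial markers, 2 of 7 were past 2-fold upward and 0 downward, with sums of 1207 and 1217 CPM. Keratin genes made up most of both sums. The 2 genes were the collagen genes COL3A1 (2 and 154 counts) and COL1A1 (64 and 233 counts), while COL1A2 was lower (70 and 42 counts). The part of these cells' RNA in the ratios of the members was not tested.

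The 3 protein-coding genes with at least 500 counts whose ratio was nearest to that of PRKCB were GALM, DDIT4 and LMO2. GALM, for a sugar-converting enzyme, had 52.0 and 12.2 CPM and a ratio of -2.08. DDIT4, an inhibitor gene of mTOR signalling, had 98.2 and 23.6 CPM and a ratio of -2.06, and LMO2, for an erythroid cofactor, 95.4 and 23.1 CPM and -2.04. The likeness is the distance of the log2 ratios over 2 libraries, 0.00538, 0.0215 and 0.0360, which lies within the counting intervals of all 3 genes.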

How the data were processed

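Poly(A) RNA of 2 K562 libraries was measured, 1 per guide, from 1 µg of RNA with paired reads of 100 bases, per the labels' protocols. The authors deposited estimated counts per gene, not scaled between libraries and already whole numbers. The submitters' processing notes name 3 tools, STAR (2.7.10a), Salmon (1.10.1) and DESeq2 (1.42.1), and the build hg38. What each tool did, and with which annotation, is not given in the sources used here. Where estimated counts split reads between similar genes, such splits can move counts among them.

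Scaling over all 62702 rows (2 are reporter genes) used TMM (edgeR 4.0.16, R 4.3.3), and Python 3.11.15 with numpy 2.4.6, scipy 1.17.1 and pandas 2.3.3 did the rest. A gene was sorted as 2-fold higher or lower when it had at least 100 counts over both libraries. Coordinates and lengths come from GENCODE 29 (GRCh38), which held 97.9% of the tested genes and is not known to be the table's annotation. Promoter sequence comes from RefSeq. The rule for named genes took the members and PRKC antisense or divergent RNA genes, list genes past 2-fold and each list's extremes, neighbours within 500 kb (extremes and nearest printed), the 3 genes nearest to PRKCB in ratio, and SMC1A. Outside it, PLCG1, PDPK1, RACK1, ITPR1, ADD1, ADD3, MARCKSL1, PRKACA and RASGRP3 were named after their values were seen. The members, lists and rules were chosen with earlier results of these data known. Some genes that these rules cover are not reported here. Calculations were tested on simulated data. As alternatives, other scalings (among them size factors from DESeq2 1.42.0), prior counts and count limits were tried.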

Additional observations from a re-analysis of the deposited data

How the results depend on the processing

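PRKCB was at least 2-fold lower under every scaling, prior count and count limit tried, with log2 ratios from -2.08 to -1.95. At a 1.5-fold limit 2 members were lower, PRKCQ being the second. With at least 20 counts or with no limit on counts 1 member was at least 2-fold higher, PRKCE, whose ratio ranged from 1.41 to 2.17. The log2 ratio of the members' summed level was -1.14, -1.01 by library totals and -0.054 without PRKCB. Library totals moved the median ratio of all tested genes by 0.13, and with them PRKCA was at 0.22, just above its counting interval. Over all genes, those at least 2-fold lower numbered 518 with at least 20 counts, 140 with at least 500, 2714 with no limit and 143 with the whole interval past 2-fold, against 263. Those higher numbered 1361, 199, 3800 and 343, against 579. List medians near 0 changed sign: phospholipase C genes were at 0.12 by library totals and 0.0093 by upper quartile, the CARD-BCL10-MALT1 module at 0.13 by library totals, 0.015 by upper quartile and 0.0060 by DESeq2 size factors, and the AKT, S6 and SGK kinases at 0.00349 by library totals. The cause was not tested. No paired analysis was possible because each group has 1 library. Depth limits PRKCE and PRKCH, which had at most 19 counts in a library.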
